A study of Mus musculus with 8 samples.

Results

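Normal ventral prostate is described here from 4 wild type arrays, out of 8 arrays in the series. They were chosen by their titles, Wild type 1 to 4, and no value was used to choose them. Each array held total RNA of ventral prostate, from mice of the FVB strain at 20 weeks of age, labelled as normal, with no transgene and no treatment named. The remaining arrays, from prostates with an activated p110 beta subunit of PI3-kinase, were not compared here. Per the labels, Trizol and then RNeasy purified the RNA, which was labelled by the standard Affymetrix protocol. The labels do not say whether each array came from 1 animal, from pooled animals or from repeat samples of an animal, so the spread between arrays may be partly technical. The number of arrays limits the precision of every mean and SD. After control probe sets were left out, 22626 probe sets remained, and the 20380 with exactly 1 gene symbol gave 12393 genes, each represented by its probe set with the highest mean over the 4 arrays.

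The ventral prostate is a lobe of the mouse gland in which tall luminal cells line ducts and release protein, citrate and zinc-binding factors into seminal fluid. A thin basal layer lies under the luminal cells, and sheaths of smooth muscle and fibroblasts surround each duct. Androgens, acting through the androgen receptor together with pioneer and homeobox factors, keep the luminal cells differentiated and drive their secretory genes.

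A value is the log2 signal of a probe set after RMA, and it depends on the affinity of its probes and on saturation as well as on transcript amount. An order of levels below is therefore an order of signals and not of transcript numbers. The median gene lay at 5.89 on this log2 scale, the top 10% of genes began at 8.82 and the top 1% at 11.24. To see where signal without expression may lie, 53 genes known from other organs, such as liver, pancreas, testis or retina, were read on the same arrays. Their median level was 4.17, and 2 of the 53 lay above the array median on all 4 arrays, against 5723 of all 12393 genes (46.2%). Those 2 were Cela1, a pancreatic elastase, at 8.07 ± 0.42 (SD, n = 4), and Sftpb, a lung surfactant protein, at 6.69 ± 0.12. Taking the 90th percentile of the other-organ genes on each array as a background, 6525 genes (52.7%) exceeded it on every array and 4810 (38.8%) on no array. Levels under the median are thus a range in which signal and background overlap, and they are not evidence that a gene was silent. All 6 measured Y-linked genes, which only males carry, lay there too, with Uty highest at 5.62 ± 0.29. Whether the prostate transcribes them was not tested.

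**Figure D1:**
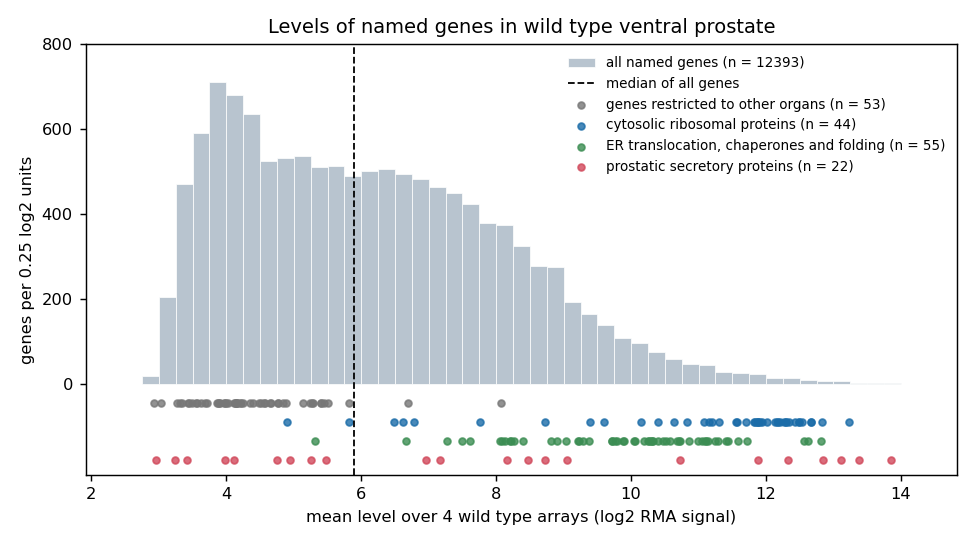
Histogram of the mean log2 RMA signal of 12393 named genes over 4 wild type arrays, with the members of 4 gene lists as points under the axis (their vertical position only separates the lists). The dashed line is the median of all genes, 5.89. Genes of other organs cluster left of it, ribosomal and endoplasmic reticulum genes right of it, and secretory proteins lie at both ends.

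The 4 arrays resembled each other closely. Pearson correlations over the genes ran from 0.980 for arrays 1 and 4 to 0.991 for arrays 3 and 4, and no pair of arrays shared more than 32 identical probe set values. They differed in their width: the SD over all genes was 2.08, 2.00, 1.95 and 1.89 in arrays 1 to 4. With the genes sorted by level into 10 classes, the median deviation from the gene mean in the brightest class was 0.14 in array 1 and -0.09 in array 4, while in the third class from the bottom it was -0.16 and 0.16. Arrays 1 to 4 were highest for 3871, 1990, 2103 and 4429 of all 12393 genes and lowest for 4631, 2428, 1888 and 3446. The 3' minus 5' signal of the Gapdh and actin control probe sets, a sign of RNA integrity, averaged 1.48, 1.34, 1.49 and 1.56 on the log2 scale. The 2 controls differed in their order, with 1.15, 1.05, 1.35 and 1.49 for Gapdh and 1.80, 1.63, 1.63 and 1.63 for actin. The part of this difference in width in the results was not tested, and values after quantile normalization of the 4 arrays are given for some of the statements.

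Secreted proteins of the prostate included the brightest named gene. Spink1, a secreted trypsin inhibitor of the male accessory glands, had the highest mean of all 12393 genes, and 5 of the 22 measured secretory proteins were among the 40 brightest genes. Spink1 read 13.79, 13.80, 13.89 and 13.94 in arrays 1 to 4, a mean of 13.85 ± 0.07 (SD, n = 4). Its arrays lay within 0.15 of each other. Msmb, the beta-microseminoprotein of seminal fluid, at rank 4 read 13.35, 13.52, 13.08 and 13.56, and array 3 was the lowest. Pbsn, the androgen-regulated lipocalin probasin whose promoter is widely used to drive prostate transgenes, read 12.82, 12.97, 12.37 and 13.21, again with array 3 lowest and array 4 highest. Clu, a secreted chaperone, read 12.91, 12.44, 13.69 and 13.39, the widest spread among the 40 brightest genes. Array 2 was lowest and array 3 highest, and all 3 other Clu probe sets, at lower levels of 11.47 to 12.35, had the same lowest and highest array. Mgst1, a microsomal glutathione transferase carried on this list, lay at 12.33 ± 0.10, and Agr2, a disulfide isomerase relative of secretory epithelia, at 11.88 ± 0.21. Azgp1, the zinc-alpha-2-glycoprotein, lay at 10.73 ± 0.20. Further down, Cst3, the protease inhibitor cystatin C, lay at 9.05 ± 0.10, Apof, an apolipoprotein, at 8.73 ± 0.24, and Mme, the surface peptidase neprilysin, at 8.48 ± 0.13.

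The list was split rather than uniformly bright. Of its 22 measured members 13 lay above the array median on every array (59.1%, against 46.2% of all genes), 8 were in the top 10% and 6 in the top 1%. The other 9 lay below, from Timp1, a metalloproteinase inhibitor, at 5.48 ± 0.14 down to Crisp3, a cysteine-rich secretory protein, at 2.95 ± 0.14. Acpp, the prostatic acid phosphatase, was among them and read 4.65, 4.65, 4.76 and 5.75, with array 4 above the other arrays. Among 6 secretoglobins, small secreted lipid-binding proteins, Scgb2b27 was bright with 11.51, 10.92, 11.77 and 10.48 and Scgb1b27 read 7.31, 6.31, 7.57 and 6.16. Both were highest in array 3 and lowest in array 4, and the other 4 members had means between 3.70 and 4.97. Mucosal defence genes had the same shape: Defb1, a beta-defensin, read 12.18, 12.89, 11.80 and 12.32, and Pigr, the receptor that carries polymeric antibodies across an epithelium, read 12.25, 11.30, 12.53 and 12.40. The Defb1 and Pigr extremes were opposite, with array 2 the highest for Defb1 and the lowest for Pigr. The other 25 defence genes had means from 3.06 to 7.63, and 7 of the 27 were above the median on every array.

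**Figure D2:**
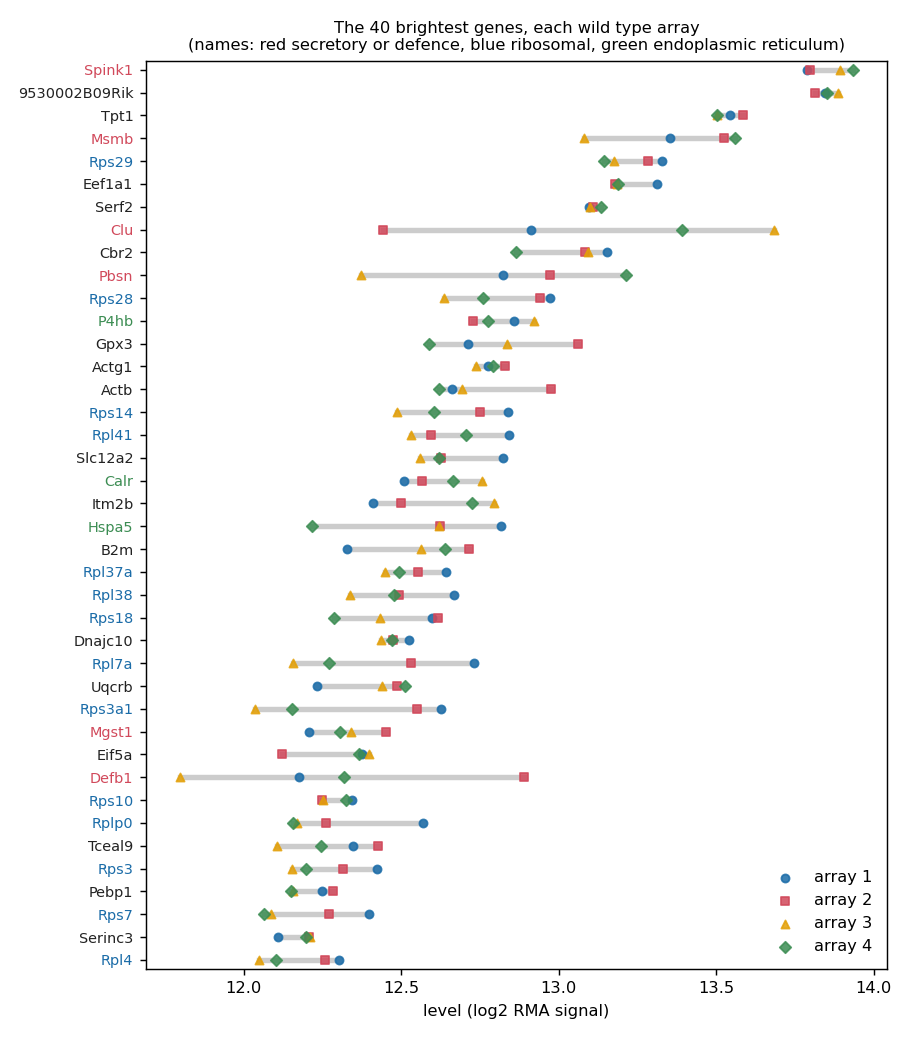
Level of the 40 brightest genes on each wild type array (log2 RMA signal, 1 point per array, grey bar from lowest to highest). Spink1 leads at 13.85, and the bars of Clu, Defb1 and Pbsn are the longest.

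Neighbours in this order were seldom separated. The ranges over the 4 arrays overlapped in 37 of the 39 neighbouring pairs among the 40 brightest genes, and the 2 that did not overlap kept their order on all arrays, 9530002B09Rik before Tpt1 and Eef1a1 before Serf2. A gene model known only by its clone name, 9530002B09Rik, followed Spink1 at 13.85 ± 0.03 and is named here after its value was seen. The remaining leaders were mostly genes used by every cell. Tpt1, the translationally controlled tumour protein, lay at 13.53 ± 0.04, Eef1a1, the elongation factor that brings transfer RNA to the ribosome, at 13.22 ± 0.06, and Serf2, a small basic protein, at 13.11 ± 0.02. Cbr2, a carbonyl reductase, lay at 13.05 ± 0.13, Gpx3, the secreted glutathione peroxidase, at 12.80 ± 0.20, and Slc12a2, a sodium, potassium and chloride cotransporter of secretory epithelia, at 12.66 ± 0.11. Of the 40 brightest genes 14 were cytosolic ribosomal proteins. The 100 brightest genes held 19.0% ± 0.49 (SD, n = 4) of the summed linear signal and the 10 brightest 4.08% ± 0.29.

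Among genes with a promoter sequence at hand, bright secretory genes and leading genes of general use had promoters of different base composition. The choice of arrays did not use this property. Spink1, Msmb, Clu and Defb1, among the brightest secretory and defence genes, had no such sequence, so their promoters were not read. Sequences came from the RefSeq promoters of build GRCm38.p6, which cover 250 bases before to 50 after a gene's start. The stretches printed here, each 5' to 3' on the gene's strand, are the bases from 100 before to 30 after the start, with the dinucleotide CG in capitals. Among genes with exactly 1 promoter in that table, they are 9530002B09Rik, the 4 brightest secretory or defence genes and the 3 brightest other genes.
9530002B09Rik: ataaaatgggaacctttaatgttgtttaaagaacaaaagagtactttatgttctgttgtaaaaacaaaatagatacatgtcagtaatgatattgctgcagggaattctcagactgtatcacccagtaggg
Pbsn: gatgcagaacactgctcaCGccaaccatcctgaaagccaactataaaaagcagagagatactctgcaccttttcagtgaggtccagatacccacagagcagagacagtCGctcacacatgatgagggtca
Pigr: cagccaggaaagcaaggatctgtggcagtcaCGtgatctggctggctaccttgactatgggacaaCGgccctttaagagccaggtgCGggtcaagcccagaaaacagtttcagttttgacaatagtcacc
Agr2: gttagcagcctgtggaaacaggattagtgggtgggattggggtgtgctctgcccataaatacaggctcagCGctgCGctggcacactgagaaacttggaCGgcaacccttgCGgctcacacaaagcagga
Scgb2b27: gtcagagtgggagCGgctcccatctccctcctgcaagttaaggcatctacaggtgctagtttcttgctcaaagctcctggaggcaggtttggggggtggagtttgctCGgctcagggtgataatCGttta
Tpt1: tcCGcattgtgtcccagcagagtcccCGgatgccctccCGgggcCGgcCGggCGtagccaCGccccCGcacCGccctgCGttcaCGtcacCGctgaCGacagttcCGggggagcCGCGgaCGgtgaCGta
Eef1a1: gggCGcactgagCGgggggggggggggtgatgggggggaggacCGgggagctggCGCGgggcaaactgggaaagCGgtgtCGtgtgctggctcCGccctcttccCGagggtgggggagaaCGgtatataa
Serf2: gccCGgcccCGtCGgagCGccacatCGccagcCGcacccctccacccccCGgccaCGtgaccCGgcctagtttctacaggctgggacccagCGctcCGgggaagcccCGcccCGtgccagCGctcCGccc
They lie as follows: 9530002B09Rik at chr4:122689159-122689288 on the plus strand, Pbsn at chrX:77853471-77853600 on the minus strand, Pigr at chr1:130826584-130826713 on the plus strand, Agr2 at chr12:35992825-35992954 on the plus strand, Scgb2b27 at chr7:34013913-34014042 on the minus strand, Tpt1 at chr14:75845156-75845285 on the plus strand, Eef1a1 at chr9:78481695-78481824 on the minus strand and Serf2 at chr2:121449098-121449227 on the plus strand. The 9530002B09Rik, Pbsn, Pigr, Agr2 and Scgb2b27 stretches hold 0, 2, 3, 4 and 3 CG in 130 bases, and the Tpt1, Eef1a1 and Serf2 stretches hold 18, 10 and 15.

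Over all genes the CpG ratio, the observed over the expected number of CG in these 300 bases, had a median of 0.731 among the 9882 genes with a promoter in the table. For the 100 brightest genes, 81 of them with a promoter, the median was 0.850, and for 39 ribosomal protein genes 0.931. For the 17 of 23 secretory, defence, secretoglobin and kallikrein genes above the median that had a promoter it was 0.206, and 14 of the 17 (82.4%) lay under 0.438, the 25th percentile of all genes. A gene with several promoters was read at its highest ratio. Cst3, with 1 promoter, lay above at 0.581. Mgst1 at 0.607 and Mme at 0.801 also did so, but each had a further promoter under 0.438, at 0.073 for Mgst1 and 0.311 for Mme. A gene was counted where any of its promoters held the letters TATAAA on the gene's strand from 50 to 15 bases before the start. Of the 100 brightest genes 0 of the 81 with a promoter were counted, and of all genes 331 of the 9882 (3.35%). Among the 100 most variable genes above the median, 9 of the 77 with a promoter (11.7%) were counted. Of the 63 with exactly 1 promoter, 6 (9.52%) held the letters, against 3.47% of all such genes. Reversed on the other strand, as TTTATA, the letters were in a promoter of 0.789% of all genes and of 2.60% of the 100 most variable genes. Over all 32851 promoters, counted singly and not by gene, the shares were 2.32% and 0.816%. In Pbsn the letters begin 59 bases before the start, just outside that window. A match is a description of letters and says nothing of a factor bound there.

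Genes of the machinery that makes and ships secreted proteins were bright nearly without exception. Of 55 measured genes for entry into the endoplasmic reticulum, chaperones and folding, 54 lay above the median on every array (98.2%, against 46.2% of all genes) and 42 were in the top 10%, with a list median of 10.19. P4hb, the protein disulfide isomerase, lay at 12.82 ± 0.09 (SD, n = 4), Calr, the chaperone calreticulin, at 12.62 ± 0.11, and Hspa5, the reticulum's main Hsp70 chaperone, at 12.57 ± 0.25. Sec61a1, the channel through which new chains enter, lay at 11.71 ± 0.20, and Xbp1, the transcription factor that enlarges the secretory apparatus, at 11.00 ± 0.23. The single member under the median was Ern1, the stress sensor that splices Xbp1 mRNA, which read 5.19, 5.59, 5.15 and 5.31. Ddit3, a factor of prolonged reticulum stress, was the next lowest at 6.66 ± 0.14. Vesicle and Golgi transport followed with 41 of 43 genes above the median and a list median of 9.51. It was led by Rab1a, a small GTPase of traffic between reticulum and Golgi, at 11.92 ± 0.08, Arf1, which recruits coats, at 11.61 ± 0.07, and the cargo receptor Tmed3 at 11.33 ± 0.12. Gosr1, a Golgi SNARE, at 5.91 ± 0.18 and Rab27a, a GTPase of granule release, at 4.21 ± 0.15 were the exceptions. Cytosolic ribosomal proteins had the highest list median, 11.85, and 42 of 44 lay above the median. They held 5.78% ± 0.35 of the summed linear signal, the reticulum list 3.17% ± 0.20 and the 22 secretory proteins 2.14% ± 0.25, while making up 0.355%, 0.444% and 0.178% of the genes. Of the genes listed, 44 of 80, 55 of 58 and 22 of 34 were measured, so these shares are incomplete to unequal degrees. Rpl14 at 4.90 ± 0.23 and Rpl12 at 5.82 ± 0.14 were the ribosomal exceptions.

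Genes of energy and citrate metabolism were also bright. The respiratory chain and ATP synthase had 62 of 64 genes above the median and a list median of 9.96, from Uqcrb, a complex III subunit, at 12.42 ± 0.13 to Cox7c, a cytochrome oxidase subunit, at 4.70 ± 0.30. In the citrate cycle and its transporters, 27 of 30 genes lay above the median with a list median of 8.62. Mdh1, the cytosolic malate dehydrogenase, read 11.72, 11.51, 11.61 and 11.67, and Ank, a transporter that exports pyrophosphate and citrate, read 11.32, 11.08, 11.66 and 11.68, with arrays 3 and 4 above arrays 1 and 2. Cs, the citrate synthase, lay at 9.63 ± 0.15 and Pdha1, a pyruvate dehydrogenase subunit, at 9.90 ± 0.16, while Pcx, the pyruvate carboxylase, lay at 5.96 ± 0.11 and Me2, a mitochondrial malic enzyme, at 5.72 ± 0.14. Polyamine genes, whose products the prostate makes in quantity, had 11 of 14 above the median and a list median of 8.62. Oaz1, the antizyme that limits polyamine synthesis, lay at 11.59 ± 0.16. Odc1, the enzyme that starts the pathway, read 10.91, 10.26, 10.16 and 10.24, with array 1 apart from the other arrays. Srm, the spermidine synthase, lay at 9.76 ± 0.19, and Sat1, which acetylates polyamines for export, read 8.74, 9.12, 7.86 and 7.34, with arrays 1 and 2 above arrays 3 and 4. The zinc list had 15 of 22 above the median. The metallothioneins Mt2 at 11.28 ± 0.27 and Mt1 at 11.16 ± 0.18 led it, the transporters Slc39a11 at 9.04 ± 0.27 and Slc39a8 at 8.66 ± 0.23 followed, and Slc30a2, an exporter into vesicles, at 4.14 ± 0.40 and Mt4, a metallothionein of squamous epithelia, at 3.50 ± 0.07 closed it.

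Regulators of prostate identity were unevenly represented. Foxa1, the pioneer factor that opens chromatin for the androgen receptor, read 11.50, 11.33, 11.30 and 11.39, and Hoxb13, the homeobox factor of the prostate, read 10.76, 10.20, 10.27 and 10.32. They stood at the 99.1 and 97.5 percentiles of all genes, and their arrays spanned 0.20 and 0.56. Ncoa4, a receptor coactivator also known for iron release, lay at 11.42 ± 0.34, and the epithelial factors Grhl2 at 9.96 ± 0.16, Ehf at 9.75 ± 0.14 and Klf5 at 9.06 ± 0.21 followed. Of the 24 measured factors 14 lay above the median. The other 10 included the estrogen receptors Esr1 at 3.90 ± 0.33 and Esr2 at 4.69 ± 0.35, and Pgr, the progesterone receptor, at 3.71 ± 0.21. Hoxb13 stood far above its family: among 13 Hox genes of groups 9 to 13, Hoxa11 at 6.89 ± 0.27 and Hoxa9 at 6.44 ± 0.26 were the others above the median. Of 18 Hox genes of groups 1 to 8, which pattern more anterior regions of the body, Hoxb3 at 6.11 ± 0.15 was above it. Among 21 genes of androgen metabolism and response, 15 lay above the median, led by Slc45a3, the transporter prostein, at 11.70 ± 0.20, Fkbp5, an immunophilin of receptor complexes, at 11.10 ± 0.08 and Tmprss2, a surface serine protease, at 9.85 ± 0.08. Hsd17b6 at 4.40 ± 0.11 and Hsd17b2 at 3.51 ± 0.13, steroid dehydrogenases, were the lowest.

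Components of the PI3-kinase pathway, into which the study's transgene feeds, gave moderate signals in the wild type gland. Of 35 measured genes 22 lay above the median, 1 was in the top 10%, and the list median was 6.93. That 1 gene was Rheb, the GTPase that activates mTORC1, at 10.43 ± 0.26. Akt1 lay at 8.30 ± 0.05 and Akt2 at 7.47 ± 0.15, kinases downstream of PI3-kinase, and Pdpk1, which activates them, at 8.54 ± 0.10. Pik3ca, the p110 alpha subunit, lay at 7.67 ± 0.13, and the receptors Erbb3 at 8.36 ± 0.14 and Fgfr2 at 8.11 ± 0.10 and the adaptor Irs1 at 8.68 ± 0.18 were also above the median. Insr, the insulin receptor, at 4.35 ± 0.36 and Rictor, the mTORC2 subunit, at 3.99 ± 0.36 were the lowest. The list's scores, a score being the mean of gene-centred log2 values, spanned 0.03 over the arrays as deposited and 0.10 after quantile normalization. Single members varied like other genes, with a median SD of 0.175 against 0.183 for all genes, and arrays 1 to 4 were highest for 10, 9, 7 and 9 of them.

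Luminal epithelium had the brightest list of cell type markers. Of its 14 measured markers 13 lay above the median on every array and 9 in the top 10%, with a list median of 9.87. Cd24a, a surface sialoglycoprotein, read 11.15, 11.06, 11.43 and 11.33, Krt18 read 11.31, 11.07, 10.70 and 10.70 and its keratin partner Krt8 read 10.96, 11.12, 10.77 and 10.76. Epcam, an epithelial adhesion molecule, lay at 10.79 ± 0.09 and Cldn3, a tight junction claudin, at 10.51 ± 0.10. Dpp4, a surface peptidase, was the exception and read 6.29, 6.01, 6.26 and 5.43, under the median in array 4. The androgen receptor's own gene is not analysed here. Basal markers were mixed, with 5 of 13 above the median and a list median of 5.41. Krt5 read 8.29, 8.01, 8.43 and 8.57 and Krt15 read 8.22, 8.27, 8.41 and 8.42, basal keratins well above background on every array, whereas Trp63, the master factor of basal cells, read 5.23, 5.22, 4.93 and 4.71 and Krt14 read 4.66, 5.67, 4.95 and 4.91. Smooth muscle was the second brightest marker list, with 12 of 14 above the median and a list median of 8.81. Acta2, smooth muscle actin, read 11.62, 12.47, 11.97 and 11.68, and Tagln, transgelin, read 10.73, 11.75, 10.95 and 10.77. Of 16 fibroblast markers 9 lay above the median, led by Dcn, the matrix proteoglycan decorin, at 11.01 ± 0.28, Gsn, gelsolin, at 10.35 ± 0.30, and Col3a1 at 9.10 ± 0.67. In bulk tissue, fewer cells of a type and less of its RNA per cell cannot be told apart.

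Markers of other cell types mostly did not lie above the median on every array. MHC class II presentation came closest, with 4 of 8 genes above it, 5 of 8 above the other-organ background and a list median of 6.50. Endothelium had 3 of 13 genes above the median, led by Ramp2, a receptor activity modifying protein, at 6.76 ± 0.22, while Pecam1, its adhesion molecule, read 3.58, 4.19, 4.22 and 4.17. Macrophages had 6 of 18, led by Csf1r, the colony-stimulating factor receptor, at 8.43 ± 0.49, and 8 of 18 above the other-organ background. T and NK cells had 1 of 15 above the median. That 1 was Zap70, a kinase of T cell receptor signalling, at 7.26 ± 0.25, and Cd3e, a chain of the receptor complex, at 6.09 ± 0.25 was under the median of array 1. B and plasma cells had 2 of 9, with Blnk, a signalling adaptor of B cells, at 9.40 ± 0.17 far above Cd79a at 5.22 ± 0.28. Neutrophil, mast cell and neuroendocrine lists had 0 of 8, 0 of 8 and 0 of 7. Of 14 skeletal muscle genes, 1 was above the median, Acta1, skeletal actin, at 8.19 ± 0.47. Of 6 urothelial genes the uroplakins Upk1a at 9.64 ± 0.22 and Upk2 at 6.21 ± 0.17 were above it, and Krt20, a keratin of umbrella cells, at 4.25 ± 0.17 was not. Seminal vesicle proteins, the mark of a neighbouring gland, had 0 of 7 above the median and the lowest list median, 3.42, with Svs2, a main clotting protein of that gland, at 3.67 ± 0.14. Kallikreins, a protease family whose human members include prostate specific antigen, had 1 of 16, Klk1b21 at 6.90 ± 0.19. Of 35 genes of DNA replication and mitosis 5 were above the median, led by Pcna, the replication clamp, at 8.64 ± 0.22, and Top2a, the mitotic topoisomerase, lay at 5.33 ± 0.45.

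**Figure D3:**
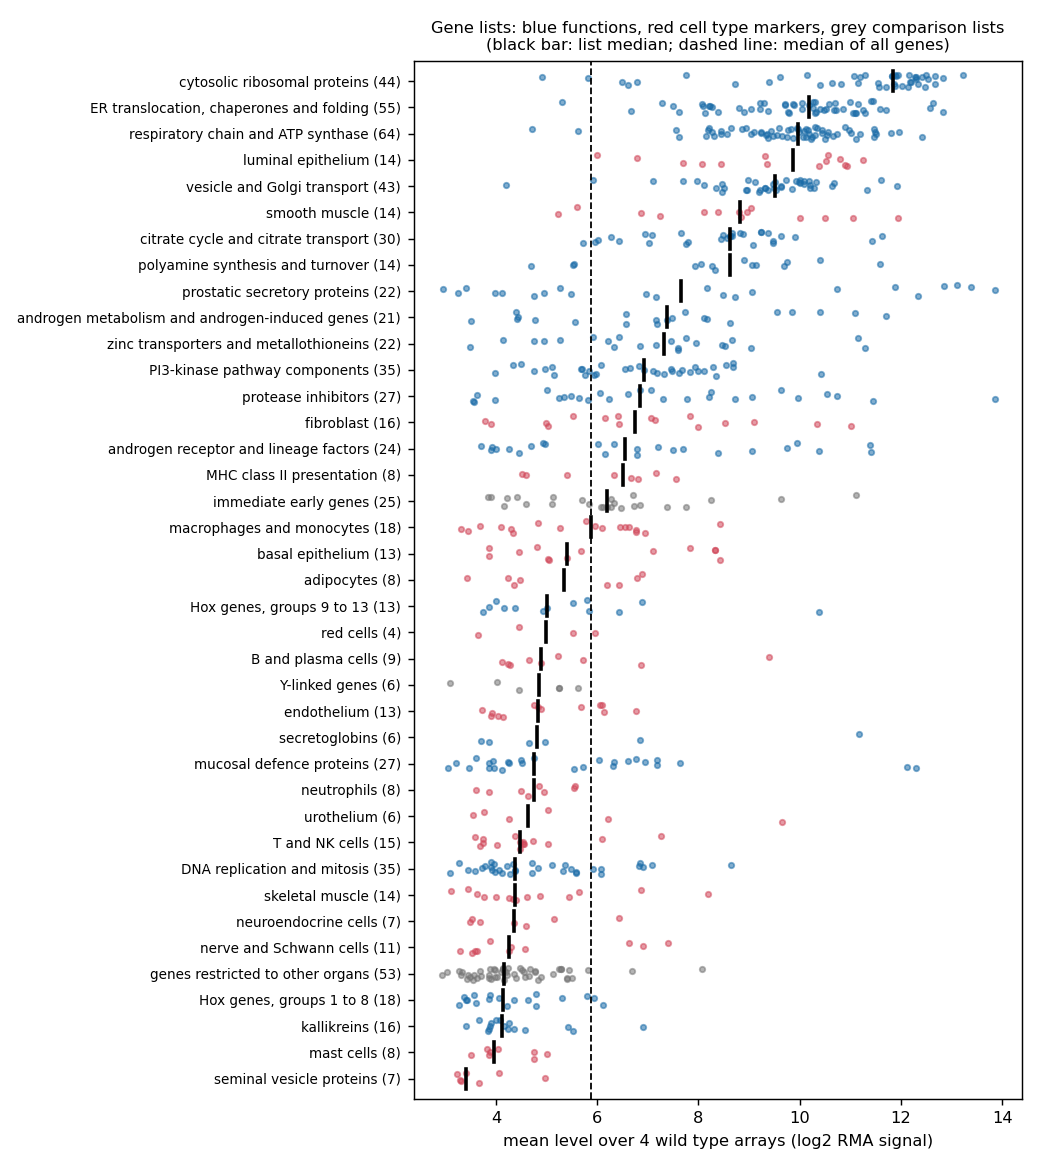
Mean log2 RMA signal of the members of 39 gene lists over the 4 wild type arrays, 1 point per gene, with the list median as a black bar and the number of measured members in brackets. Ribosomal, endoplasmic reticulum, respiratory, luminal and Golgi lists have medians above 9, and seminal vesicle proteins have the lowest median.

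Most genes varied little between the wild type arrays. The median SD over the 4 arrays was 0.183 on the log2 scale and the 90th percentile 0.352. Among the 5723 genes above the median, 145 (2.53%) had an SD above 0.5 and 4 had an SD above 1. Without array 3 the 145 became 250. Those 4 were Saa3, an acute phase protein that epithelia and macrophages make, Ccn2, the connective tissue growth factor, Lgals1, the lectin galectin-1, and Retnla, a secreted protein of alternatively activated macrophages. Saa3 read 6.18, 6.02, 6.77 and 9.77, with array 4 the highest by 3.01. Ccn2 read 8.20, 9.69, 8.32 and 6.78, highest in array 2 and lowest in array 4. Lgals1 read 7.07, 8.54, 7.20 and 5.97 with the same extremes. Its 1 further probe set, with a mean of 7.085 and an SD of 0.865, was also highest in array 2 but not lowest in array 4. Retnla read 7.77, 10.08, 8.17 and 8.58 with array 2 highest. The 40 brightest genes were steadier, with a median SD of 0.129, and 1 of them, Clu, exceeded 0.5. The part of saturation in this was not tested. The 11 secretory, defence and secretoglobin genes in the top 10% had a median SD of 0.219, against 0.173 for all genes there. An SD above 0.3 was found in 5 of these 11, against 166 of all 1240 genes in the top 10% (13.4%).

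**Figure D4:**
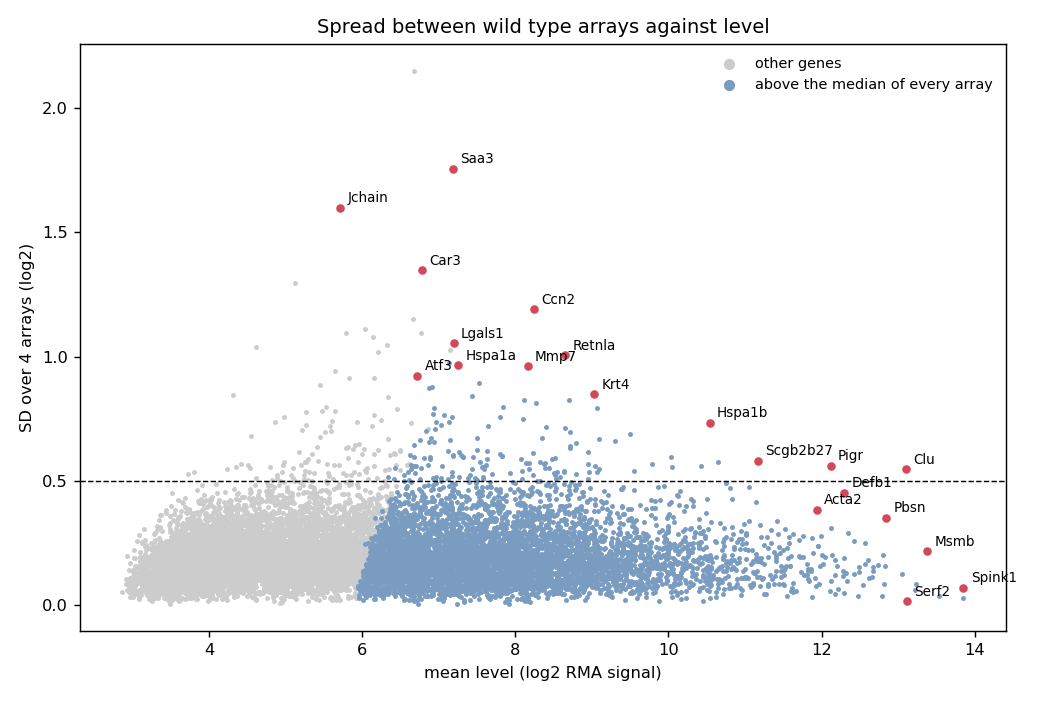
SD over the 4 wild type arrays against mean level, both on the log2 scale, 1 point per gene, with the dashed line at an SD of 0.5. Saa3 has the highest SD among genes above the median (blue), and labelled bright secretory genes lie at 0.55 or less apart from Scgb2b27 and Pigr.

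Array 2 held the highest value for 22 of the 30 most variable genes and for 72 of the 145 genes with an SD above 0.5, against 1042 of all 5723 genes above the median. After quantile normalization it did so for 62 of 119, against 1112 of 5725. Of the 145 genes, 54 were highest in array 1 and 80 lowest in array 4. Marker lists of stromal cells and macrophages moved with array 2, although 10 of the 145 genes belong to these 3 lists, which have 27 members above the median. The fibroblast score, the mean deviation of its 16 markers from their own means, was -0.51, 0.54, -0.04 and 0.01 in arrays 1 to 4, and array 2 was highest for 13 of 16 markers and array 1 lowest for 15. Over all 12393 genes array 2 was highest for 1990 and array 1 lowest for 4631. Col3a1 and Col1a2, fibrillar collagens, read 8.50, 10.04, 9.05 and 8.80 and 7.93, 9.34, 8.48 and 8.32. Vim, the filament protein vimentin of mesenchymal cells, read 7.10, 8.96, 7.74 and 7.52, and Dpt, the matrix protein dermatopontin, read 5.83, 8.30, 7.04 and 7.42. In each of these 4 genes array 2 was highest and array 1 lowest. The smooth muscle score was -0.25, 0.43, 0.07 and -0.24, with array 2 highest for 10 of 14 markers. Actg2, an actin of visceral muscle, read 7.30, 8.93, 8.51 and 7.67, and Myl9, a myosin light chain, read 8.68, 9.77, 9.04 and 8.33. The macrophage score was -0.43, 0.34, -0.04 and 0.13. Csf1r read 7.72, 8.85, 8.54 and 8.59, C1qa, a complement subunit, read 6.04, 7.64, 6.61 and 6.75 and Lyz2, lysozyme, read 5.93, 7.85, 6.86 and 7.14, all lowest in array 1. The genes above the median as a whole differed much less, with scores of 0.10, 0.02, -0.03 and -0.09. The spans of these scores, 1.06, 0.68 and 0.77, became 0.52, 0.32 and 0.56 without array 2, and 0.58, 0.67 and 0.39 without array 1. Luminal markers scored 0.05, 0.08, -0.03 and -0.09, and basal markers spanned 0.09. After quantile normalization luminal markers scored -0.07, 0.05, 0.02 and -0.0003, and basal markers spanned 0.08. The part of tissue composition in these differences was not tested.

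Array 2 was also highest for further genes of varied function. Mgp, the matrix Gla protein, read 6.90, 8.56, 6.74 and 6.36, Apod, a lipocalin, read 8.61, 9.84, 8.47 and 7.88, and Bgn, the proteoglycan biglycan, read 7.24, 8.90, 7.70 and 7.38. Its 2 further probe sets had the same highest array. S100a6, a calcium-binding protein, lay at 9.06 ± 0.80 with array 2 highest, and Krt4, a keratin of stratified epithelium, read 8.79, 10.03, 9.28 and 8.01. Immediate early genes, which respond to handling of tissue within minutes, scored -0.16, 0.35, -0.06 and -0.13, a span of 0.52 that shrank to 0.10 without array 2. Atf3 read 6.47, 8.06, 6.39 and 5.96, and Dusp1, a phosphatase of MAP kinases, read 5.94, 7.59, 5.90 and 5.90. In both array 2 alone stood high, yet Jund at 11.11 ± 0.18, Btg2 at 9.63 ± 0.12 and Nr4a1 at 6.85 ± 0.08, of the same list, varied little.

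**Figure D5:**
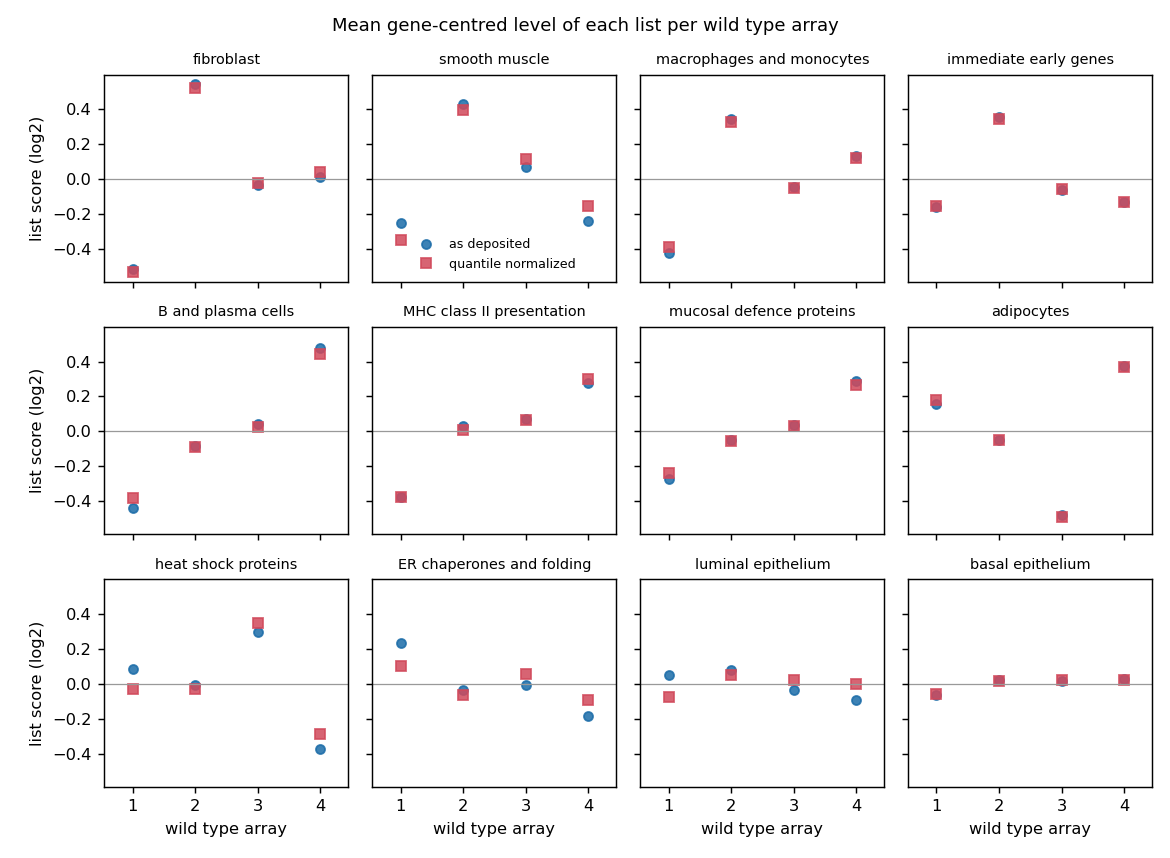
Score of 12 gene lists (mean of gene-centred log2 values) in each wild type array, as deposited (circles) and after quantile normalization of the 4 arrays (squares). Fibroblast, smooth muscle, macrophage and immediate early scores are highest in array 2 on both scales, and B cell, class II and defence scores are highest in array 4.

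Several immune and secretory lists were highest in array 4 and lowest in array 1. The same held for other lists, such as kallikreins, neuroendocrine cells and Hox genes of groups 1 to 8. Over all 12393 genes array 4 was highest for 4429 and array 1 lowest for 4631. The score of B and plasma cell markers was -0.44, -0.08, 0.04 and 0.48, with array 4 highest for 5 of 9 and array 1 lowest for 8. The score of MHC class II presentation was -0.38, 0.03, 0.07 and 0.28, with array 4 highest for 6 of 8 and array 1 lowest for all 8. Mucosal defence proteins scored -0.28, -0.05, 0.03 and 0.29, with array 4 highest for 15 of 27, although Defb1 and Pigr peaked elsewhere. Prostatic secretory proteins scored -0.15, -0.02, -0.09 and 0.26, with array 4 highest for 13 of 22. Jchain, the chain that joins secreted IgA and IgM, read 3.85, 5.62, 5.62 and 7.76, and Ighm, the IgM heavy chain, lay at 6.87 ± 0.87 with array 4 highest. Of the 10 other probe sets named Ighm, 8 were highest in array 4, with SDs from 0.13 to 1.69. B cell surface genes showed less of it: Cd79a read 4.95, 5.16, 5.60 and 5.17 and Ms4a1, which encodes CD20, read 3.87, 4.23, 4.50 and 4.50. Of the secretory list, Mmp7, the epithelial protease matrilysin, read 7.28, 8.06, 7.78 and 9.52, and Rnase1, a secreted ribonuclease, read 6.66, 7.59, 6.42 and 8.01. Of the defence list, Ltf, the iron-binding lactoferrin, read 5.22, 5.64, 7.18 and 7.25. Mmp7 and Rnase1 were highest in array 4, whereas Ltf was high in arrays 3 and 4. Dim genes as a whole also sat higher in array 4, with other-organ genes scoring -0.12, -0.05, -0.01 and 0.18. The span of that list was 0.29 as deposited and 0.13 after quantile normalization. For B and plasma cells the same spans were 0.92 and 0.82, and for class II genes 0.65 and 0.67. Without array 4 the B and plasma cell span was 0.48, and without array 1 it was 0.56. The class II span was 0.45 without array 4 and 0.25 without array 1, and the defence span of 0.57 was 0.31 and 0.34.

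Heat shock genes were mostly highest in array 3 and lowest in array 4. Hspa1b, an inducible Hsp70, read 10.42, 10.17, 11.60 and 9.96, and its 2 further probe sets had the same highest and lowest array. Hspa1a, its near-identical copy, read 7.28, 6.97, 8.54 and 6.22, and signals of these copies may not be separable. A list of 14 heat shock proteins, added after these values were seen, scored 0.08, -0.005, 0.30 and -0.37. Array 4 was lowest for 13 of the 14 and array 3 highest for 9, against 3446 and 2103 of all 12393 genes. Since 13 of the 14 lay above the median, the nearer comparison is with the 5723 genes above it. Of those, array 4 was lowest for 2484 and array 3 highest for 854. The span of 0.67 was 0.49 without array 3 and 0.30 without array 4. Hspa8, the constitutive form, read 11.89, 11.79, 12.06 and 11.71, so array 3 was highest there by a smaller margin. Of 8 adipocyte genes, Car3, a carbonic anhydrase of fat and muscle, read 7.65, 6.53, 4.99 and 7.97, and Fabp4, the fatty acid carrier of fat cells, read 6.56, 6.39, 5.43 and 6.38. Array 3 was lowest in both and in 4 of the 8 genes, while array 1 was lowest in 3 of them. The list score was 0.16, -0.05, -0.48 and 0.37, and its span of 0.85 was 0.42 without array 3. Adipoq, adiponectin, the defining gene of fat cells, read 4.87, 3.91, 3.83 and 4.78 and was lowest in arrays 2 and 3.

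Lists of bright genes were mostly highest in array 1, the array with the widest spread of values. Array 1 was highest for 37 of 44 ribosomal, 36 of 43 vesicle and Golgi and 46 of 64 respiratory genes. After quantile normalization the vesicle and Golgi score was highest in array 3, at 0.047 against 0.041 in array 1. The reticulum score was 0.23, -0.04, -0.01 and -0.19, and array 1 was highest for 40 of its 55 genes. Hspa5 read 12.82, 12.62, 12.62 and 12.22 and Sec61a1 read 11.91, 11.85, 11.56 and 11.53, both highest in array 1 and lowest in array 4. The span of the score was 0.42 as deposited, 0.19 after quantile normalization, 0.18 without array 1 and 0.27 without array 4. Of the 5723 genes above the median 2913 were highest in array 1 as deposited and 1672 after quantile normalization, and 2484 and 1514 were lowest in array 4.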

How the data were processed

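Expression was read from 4 wild type arrays, and the 4 further columns of values, from transgenic arrays, were not used. Per the submitters' processing notes the authors made the deposited log2 values with RMA, with no version given. Whether RMA was run on both groups together is not given in the sources used here. Of 22690 probe sets, 64 controls were left out. Gene names came from the array platform's GEO annotation, which can be old: 20380 probe sets had 1 symbol, 691 several and 1555 none, and 29 of the first had no RefSeq entry. Of the genes, 4956 had 2 or more probe sets. The wild type arrays form 1 group, so no test was made. Levels, ranks, SDs, list counts and list scores were computed with pandas 2.3.3, and quantile and cyclic loess normalization of the 4 arrays, as alternatives, with limma 3.58.1 in R 4.3.3. Other alternatives took another probe set per gene or left out 1 array. The scripts were tested on simulated data. The members and lists were chosen with earlier results of these data known. Genes for the text were taken from a rule: the 40 brightest and, above the median of every array, the 30 with the highest SD, in both cases without clone names, then in each list the 6 brightest, the dimmest and the most variable above the median, and all members of lists of 25 genes or fewer. The text prints part of these, and that part and any other gene named were chosen after values were seen. Protein sequences were not used here.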

Additional observations from a re-analysis of the deposited data

Results flagged for a closer look

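In these genes and lists 1 array stood apart from the other 3, by Dixon's ratio of its gap to the range of the 4 arrays. Chance gives this in about 1 of 20 groups, and 4.92% of all 12393 genes met it, so single cases are values to look at and not findings.

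Array 1 was highest for Eef1a1, at 13.31 against 13.18 to 13.19 in the others, for Odc1, at 10.91 against 10.16 to 10.26, and for Esr2, at 5.21 against 4.44 to 4.57. After quantile normalization Eef1a1 read 13.21, 13.21, 13.26 and 13.21, with array 3 highest. Array 1 was lowest for Pecam1, at 3.58 against 4.17 to 4.22, and for the basal epithelium score, at -0.064 against 0.015 to 0.028. Array 2 was highest for Dusp1, the phosphatase induced within minutes, at 7.59 against 5.90 to 5.94, and for Upk1a, the uroplakin, at 9.96 against 9.50 to 9.57. It was lowest for Srm, the spermidine synthase, at 9.47 against 9.84 to 9.87. Array 3 was lowest for Fabp4, the fatty acid carrier of fat cells, at 5.43 against 6.38 to 6.56. Array 4 was highest for Ighm, at 8.17 against 6.26 to 6.55, for Acpp, at 5.75 against 4.65 to 4.76, for Slc30a2, at 4.72 against 3.85 to 4.00, and for the seminal vesicle score, at 0.247 against -0.111 to -0.057. The Slc30a2, Pecam1, Esr2 and Acpp values and the levels of all 7 seminal vesicle genes lie below the median gene, where signal and background overlap. Other-organ genes also scored highest in array 4, at 0.175. The largest gaps among the flagged genes, in Dusp1 and Ighm, exceeded 1.5 on the log2 scale.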

How the results depend on the processing

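The share of the summed linear signal in the 100 brightest genes, 19.0%, became 21.2% with the mean of a gene's probe sets, 23.7% with its probe set of lowest mean and 15.2% when all probe sets were summed. The 145 genes with an SD above 0.5 became 234 with a range above 1 in place of the SD, 261 without the filter on dim genes, and 130 to 250 when 1 array was left out, 250 without array 3. The counts of genes above the median of every array and above the other-organ level stayed within 1.5 times under all alternatives run. List levels moved by more than their SD over arrays in 24 of 41 lists with the mean of probe sets, in 32 with the probe set of lowest mean, in 19 without probe sets marked as shared between transcripts, and in 0 of 41 under quantile or cyclic loess normalization, while list spreads moved in 15 of 41 under quantile normalization and in 17 of 41 without array 1. Levels of single printed genes moved by more than their SD over arrays in 62 of 156 with the mean of probe sets. Under quantile normalization 0 of the 156 did so. Of the 100 most variable genes, 81 were shared with the quantile normalized values and 47 with those without array 2. Of the 100 brightest, 63 were shared with the mean of probe sets, 52 with the probe set of lowest mean and 34 when probe sets marked as shared between transcripts were left out. Cause was not tested. No paired analysis was possible because only the wild type group is used and no test is made. Precision is limited by 4 arrays and, below the median, by signal near background.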

Other observations

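The following genes were picked after their values were seen. Ibsp, the bone sialoprotein, had the highest SD of all 12393 genes, 2.15, and read 8.78, 3.68, 7.31 and 6.93 in arrays 1 to 4, so that array 2 lay in the background range and the others well above it. Genes of antibodies outside the lists had the pattern of Jchain: Igha, the IgA heavy chain, read 5.83, 6.52, 5.95 and 8.32, and Igkv8-30, a kappa variable segment, read 3.84, 4.81, 4.89 and 6.93, both highest in array 4. Further genes of phagocytes, outside the macrophage list, were highest in array 2. Lyz1, a lysozyme, read 5.55, 8.20, 6.52 and 6.79, and F13a1, a coagulation factor subunit that macrophages carry, read 4.62, 7.26, 5.53 and 5.73.

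A few circadian clock genes differed between pairs of arrays. Dbp, a clock output factor, read 6.57, 6.54, 5.48 and 5.12, and Nr1d2, the repressor REV-ERB beta, read 8.33, 8.26, 7.59 and 7.04, so that arrays 1 and 2 lay above arrays 3 and 4 in both. Of 15 clock genes read, 5 lay above the median on every array, and arrays 1 to 4 were highest for 5, 2, 2 and 6 and lowest for 3, 4, 3 and 5. The list score was 0.12, 0.04, -0.06 and -0.10. Its span of 0.21 became 0.09 with the mean of a gene's probe sets. The labels used here give no time of day.

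The choice of probe set weighs on several levels. Among 3079 genes above the median with 2 or more probe sets, the highest and lowest probe set differed by a median of 2.29 on the log2 scale, and in 56.9% of them by more than 2 on that scale. Of the 227 probe sets in the top 1%, 90 (39.6%) carried several symbols or none and entered no gene, against 9.93% of all probe sets. The brightest of these had a mean of 14.04, above that of Spink1.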
